A study of Homo sapiens with 8 samples.

Results

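Collagen genes encode the alpha chains of collagens, the main structural proteins of the extracellular matrix. A set of 37 of them, chosen by gene symbol with earlier results of these data known, was examined among the 19970 protein-coding genes annotated on chromosomes 1 to 22 and X (RefSeq, GRCh38.p14). Other genes of the family were not analysed here. Each gene was taken with 5 kb on each side, called its span below. The data were ATAC-seq peak lists, that is, lists of regions where a transposase reaches the DNA of U2OS, an established line grown from a human osteosarcoma, a bone tumour. The 4 conditions, with 2 libraries each, were untreated siGl3, untreated siOrc6, siGl3 with H2O2 and siOrc6 with H2O2. siGl3 is the control siRNA, and siOrc6 targets Orc6, a small protein of the complex that marks replication origins. All cells carried one of these siRNAs for 72 h and were synchronised by a double thymidine block followed by a 3 h release. Cells with H2O2 then had 5 mM of this oxidant for 30 min. The labels number the libraries of a condition by batch and do not say whether they came from separate cultures.

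Collagen chains assemble by threes into rope-like helices, which are secreted and built into different structures. Fibrillar collagens such as types I, II, III, V and XI form the banded fibrils of bone, cartilage, skin and tendon. Type IV collagens form the sheet of basement membranes, FACIT collagens sit on the surface of fibrils, and type VI forms beaded filaments. Type VII anchors basement membranes to the tissue beneath, and several collagens span the cell membrane. Type I is the main protein of bone matrix, made by osteoblasts, the cell lineage that osteosarcoma resembles. The 37 genes held 11 fibrillar, 4 basement membrane, 8 FACIT and 4 transmembrane collagens, 3 that form networks of short chains (COL8A1, COL8A2 and COL10A1) and 3 of beaded filaments. COL7A1 of the anchoring fibrils, the 2 multiplexins COL15A1 and COL18A1, and COL26A1 completed the set.

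Among the 28 members that matched a RefSeq promoter table (GRCh38.p14), 4 had a region listed by the authors as higher in untreated siOrc6 cells over an annotated start. The sequences before these starts are shown because the regions described further on cover them. COL4A1 and COL4A2, the common chains of type IV collagen, start on opposite strands with 126 bases between them and share this stretch. Capitals mark matches, on either strand, to GGGCGG, which reads CCGCCC on the opposite strand, and to CCAAT, which there reads ATTGG.
COL4A1/COL4A2, chr13:110307158-110307283, + strand: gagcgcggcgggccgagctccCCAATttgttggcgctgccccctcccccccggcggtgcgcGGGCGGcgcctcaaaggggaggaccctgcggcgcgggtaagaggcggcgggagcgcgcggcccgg
COL5A1, chr9:134641553-134641802, + strand: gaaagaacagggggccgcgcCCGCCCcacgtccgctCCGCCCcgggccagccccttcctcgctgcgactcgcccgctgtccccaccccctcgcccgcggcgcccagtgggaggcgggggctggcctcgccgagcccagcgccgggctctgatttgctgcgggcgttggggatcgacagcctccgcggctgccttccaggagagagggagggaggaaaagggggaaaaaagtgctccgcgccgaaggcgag
COL11A1, chr1:103108523-103108772, - strand: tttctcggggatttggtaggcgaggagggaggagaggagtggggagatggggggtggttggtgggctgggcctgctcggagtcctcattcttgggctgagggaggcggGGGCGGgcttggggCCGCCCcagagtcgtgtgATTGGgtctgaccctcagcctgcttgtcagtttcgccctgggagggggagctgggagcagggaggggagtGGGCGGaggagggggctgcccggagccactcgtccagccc
The stretch of 126 bases between COL4A1 and COL4A2 held 20 CG dinucleotides, 1 match to CCAAT and 1 to GGGCGG. The 250 bases before COL5A1, a chain of type V that starts fibril assembly, held 29 CG and 2 matches to GGGCGG. Those before COL11A1, a chain of the cartilage fibril collagen type XI, held 11 CG, 1 match to CCAAT and 3 to GGGCGG. The motifs TATAAA and TGACTCA were also searched on both strands, where they read TTTATA and TGAGTCA respectively, and are not among the letters of these stretches, and no matches overlapped each other. Over the last 250 bases before 35116 listed starts, 42.6% held GGGCGG, 32.0% CCAAT, 10.7% TATAAA and 4.20% TGACTCA, with a median of 11 CG. Over the last 126 bases the shares were 34.6%, 21.1%, 5.87% and 2.46%, with a median of 6 CG. The stretches before COL4A1/COL4A2 and COL5A1 were thus rich in CG, and that before COL11A1 was at the median. A match describes letters and does not show a binding site.

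The files held 1 peak list per condition, made from both libraries, and 4 lists in which the authors set out regions with more or less accessibility under siOrc6, 2 for each treatment. Read counts, fold changes and values of single libraries were not among them, so neither depth nor the spread between replicates is known. No test between conditions was possible, and every comparison below is a count or a rank. The lists held between 97816 and 115292 peaks, shorter with H2O2 than without. Peak strength is the authors' peak signal, given as the percentile among the peaks of the same list. Because the lists differ in length, percentiles of different lists do not measure a change, and the signal also followed peak width (Spearman's rho across peaks between 0.842 and 0.882). Peaks of the 4 lists that overlapped or touched were joined into merged peaks. In bulk libraries such as these, fewer cells with an open region and less opening per cell cannot be told apart. Peaks cannot show whether the siRNA lowered Orc6. Of the osteoblast markers fixed for this work, 4 of 6 had a peak within 1 kb of an annotated end in every list (SPP1, SP7, BGLAP and RUNX2). The same held for 3 of 4 chondrocyte, 3 of 4 epithelial, 2 of 4 blood and 1 of 4 endothelial markers. Over all protein-coding genes the share was 67.0%, near that of the osteoblast markers. Peaks at gene ends thus did not by themselves set the lineage apart.

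Nearly every collagen gene had a peak somewhere in its span. Their spans held 400 of the 129052 merged peaks, and 34 of the 37 genes had a peak in every list, against 83.0% of all protein-coding genes. That share is over genes of any length, and no such share was computed within length classes. By condition, 346 of 115292 peaks (0.300%) lay in collagen spans in untreated siGl3, 324 (0.296%) in untreated siOrc6, 313 (0.302%) in siGl3 with H2O2 and 284 (0.290%) in siOrc6 with H2O2. The collagen share of each list was therefore nearly the same, although the number of peaks differed. Of the merged peaks, 358 (89.5%) touched the annotated gene, 10 lay within 1 kb of an end of another protein-coding gene, and 3 were counted for 2 collagen genes each. Where a start was listed, 20 of 310 merged peaks (6.45%) lay within 1 kb of it and 249 (80.3%) at least 10 kb from it. In long spans most positions are far from a start, and no share over all genes was computed for these distances.

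Gene length was taken into account because a longer span collects more peaks. The median collagen gene was 122 kb long, against 24.2 kb for all protein-coding genes, and held 8 merged peaks against 3. Per 100 kb of span the medians were 7.77 and 6.42. Density falls with length, so genes were also compared within classes of length. Within classes of gene length, 26 of 37 members lay above the median density of all genes of their class and 9 in the top 10% of it. The density was 18.03 against 8.38 for genes of 10 to 30 kb (5 members), and 6.71 against 5.33 for 30 to 100 kb (12 members). It was 8.85 against 4.04 for 100 to 300 kb (14 members) and 4.03 against 3.16 above 300 kb (6 members). The median number of merged peaks was 6 against 2, 3 against 3, 17 against 7 and 16 against 16 in these classes. The number was thus higher for collagen genes in 2 of the classes and equal in the other 2. Across the 37 genes, density was lower in longer genes (Spearman's rho -0.46, against -0.22 across all genes), and genes are not independent samples.

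**Figure D1:**
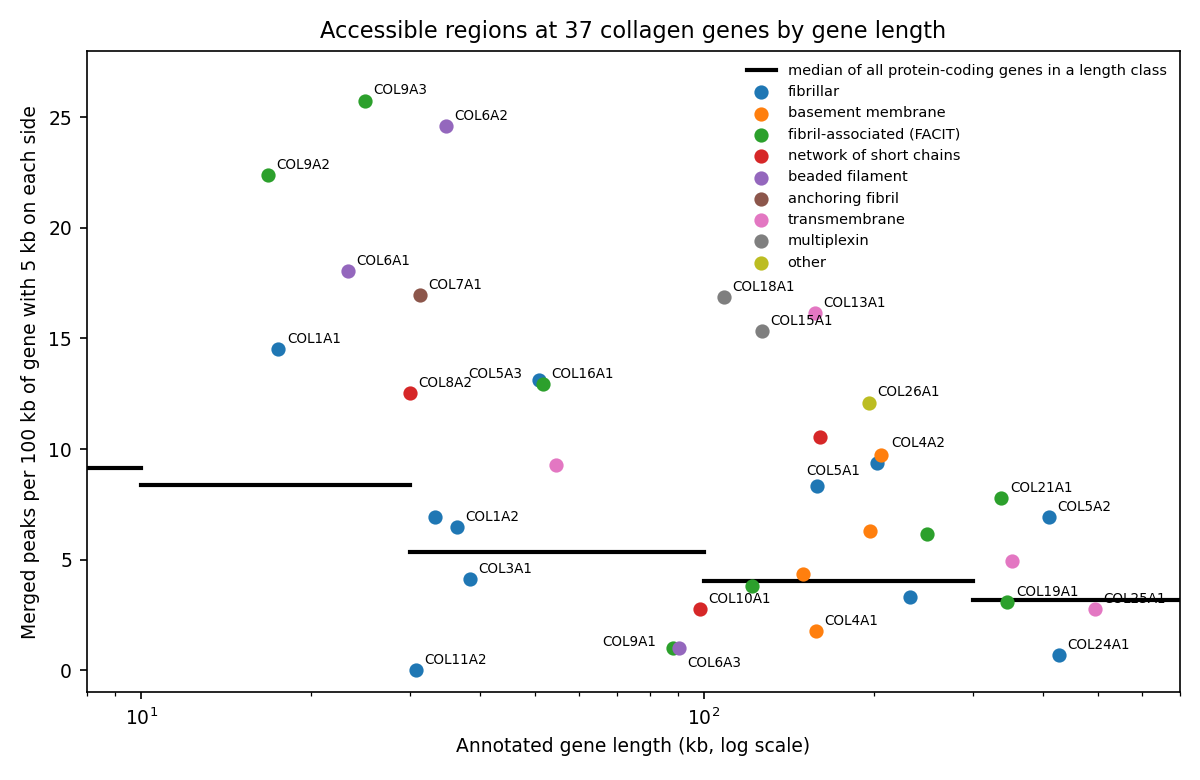
Merged peaks per 100 kb of span (vertical axis) against annotated gene length in kb on a log scale (horizontal axis) for 37 collagen genes, coloured by class, with black lines for the median of all protein-coding genes in each length class. Of the points, 26 lie above the line of their class, COL9A3 is highest at 25.8 and COL11A2 is at 0.

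The densest genes were short: COL9A3 with 25.8 merged peaks per 100 kb, COL6A2 with 24.6 and COL9A2 with 22.4. COL9A2 and COL9A3 encode chains of type IX, which coats cartilage fibrils, and COL6A2 a chain of the type VI beaded filament. The third chain gene of each type was at the other extreme: COL9A1 had 1.02 and COL6A3 0.999 per 100 kb. COL9A1 had 1 peak, in siGl3 with H2O2 alone, at the 25.5 percentile. COL6A3 had 1 merged peak, outside the gene and 1.14 kb from it, at the 7.48 percentile in untreated siOrc6 and the 16.9 percentile in siGl3 with H2O2. Genes of chains that are partners in one protein thus stood at both ends of the range of peak density. COL24A1, a fibrillar collagen gene of 428 kb, had 3 merged peaks (0.685 per 100 kb). COL11A2 had no peak in any list. It lies on chromosome 6 in a stretch of 4.54 Mb with 168 protein-coding genes and no listed peak, so its 0 cannot be read as a property of this gene.

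Among fibrillar collagens, the type I genes differed sharply. COL1A1, the gene of the more abundant chain of type I, had its strongest peak within 1 kb of its end of higher coordinate (chromosome 17, 50199699 to 50201933 in untreated siGl3). It ranked at the 99.5 percentile in untreated siGl3, 99.5 in untreated siOrc6, 99.7 in siGl3 with H2O2 and 99.6 in siOrc6 with H2O2. Counted from the strongest peak of each list, its rank was 575, 578, 346 and 361. COL1A2, the gene of the partner chain, had only weak peaks. A peak near its end of lower coordinate (94395365 to 94395755, chromosome 7) ranked at 33.99, 17.6, 12.8 and 27.1 in the same order, and one outside the gene at 34.6, 37.5, 23.3 and 23.9. COL3A1, which makes the type III chain of skin and vessels, was also weak: its strongest peak, which was not the same region in every list, was at 40.8, 45.3, 32.0 and 37.9. In all 4 lists COL1A1 was therefore near the top and these 2 genes below the middle. COL2A1, the cartilage fibril gene, had an internal peak at 89.9, 91.5, 87.9 and 88.1. COL5A3, the minor type V chain, had a strongest peak at 92.5, 89.3, 94.0 and 89.7, near its end of higher coordinate. COL5A2, another type V chain, had one at 91.5, 90.4, 90.6 and 90.7, but this peak lies at an end shared with WDR75 and cannot be assigned to either gene. COL27A1, a fibrillar collagen of cartilage, was at 87.1, 86.8, 83.0 and 79.8. Its strongest peak lay in the far part of the gene without H2O2, at a different region in each list, and near the end of lower coordinate with it. Near that end the untreated lists also had a peak, at 84.98 in siGl3 and 81.35 in siOrc6.

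The median percentile of the strongest peak over collagen genes with a peak was 92.0, 89.7, 88.2 and 88.6 in the same order, near that of all protein-coding genes (89.8, 90.2, 90.2 and 90.1). By class in untreated siGl3 it was 97.4 for COL7A1, 95.84 for multiplexin, 95.75 for beaded filament and 94.3 for FACIT genes. It was 88.5 for fibrillar, 86.2 for transmembrane, 83.7 for short-chain network and 76.0 for basement membrane genes, and 80.2 for COL26A1. This order was not fixed. With H2O2, basement membrane genes were at 82.1 in siGl3 and 80.5 in siOrc6, above short-chain network genes at 72.3 and 75.9. COL12A1, a FACIT collagen of dense connective tissue, had a peak over its promoter window at 99.0, 99.2, 98.2 and 98.7 (chromosome 6, 75204236 to 75206774 in untreated siGl3). The promoter window is the stretch from 250 bases before to 50 after a listed start. COL6A1, the type VI chain gene next to COL6A2, had a peak at its end of lower coordinate at 97.3, 98.0, 97.3 and 97.4. COL4A2 had an internal peak 40.3 kb into the gene at 98.5, 97.8, 96.7 and 94.9, and COL15A1 one 45.8 kb into the gene at 98.5, 98.3, 96.8 and 96.8. COL15A1 and COL18A1 encode collagens of the basement membrane zone whose C-terminal parts can be released as inhibitors of vessel growth. Both were dense for their length, with 15.3 and 16.9 merged peaks per 100 kb. COL7A1 had a peak at its start at 97.4, 92.9, 97.1 and 92.4. COL13A1, a transmembrane collagen of cell adhesions, held 27 merged peaks over 157 kb, with its strongest at 98.2, 97.4, 95.7 and 91.6. This lay over the start without H2O2 and at 2 other regions with it. Peaks over the start were still listed with H2O2, at 93.38 in siGl3 and 90.05 in siOrc6. Among the other FACIT genes, COL9A2 had a peak over its promoter window at 97.9, 97.6, 91.8 and 98.3, COL9A3 reached 96.0, 90.9, 94.8 and 89.0, and COL16A1 reached 94.2, 93.0, 93.3 and 90.9. COL14A1, another collagen on the surface of fibrils, was lower at 84.6, 83.7, 80.6 and 80.8, and COL8A2, a collagen of the corneal basement membrane, at 83.7, 86.9, 72.3 and 75.9. At the weak end, COL10A1, the collagen of hypertrophic cartilage, reached 52.0, 52.7, 38.9 and 37.2.

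**Figure D2:**
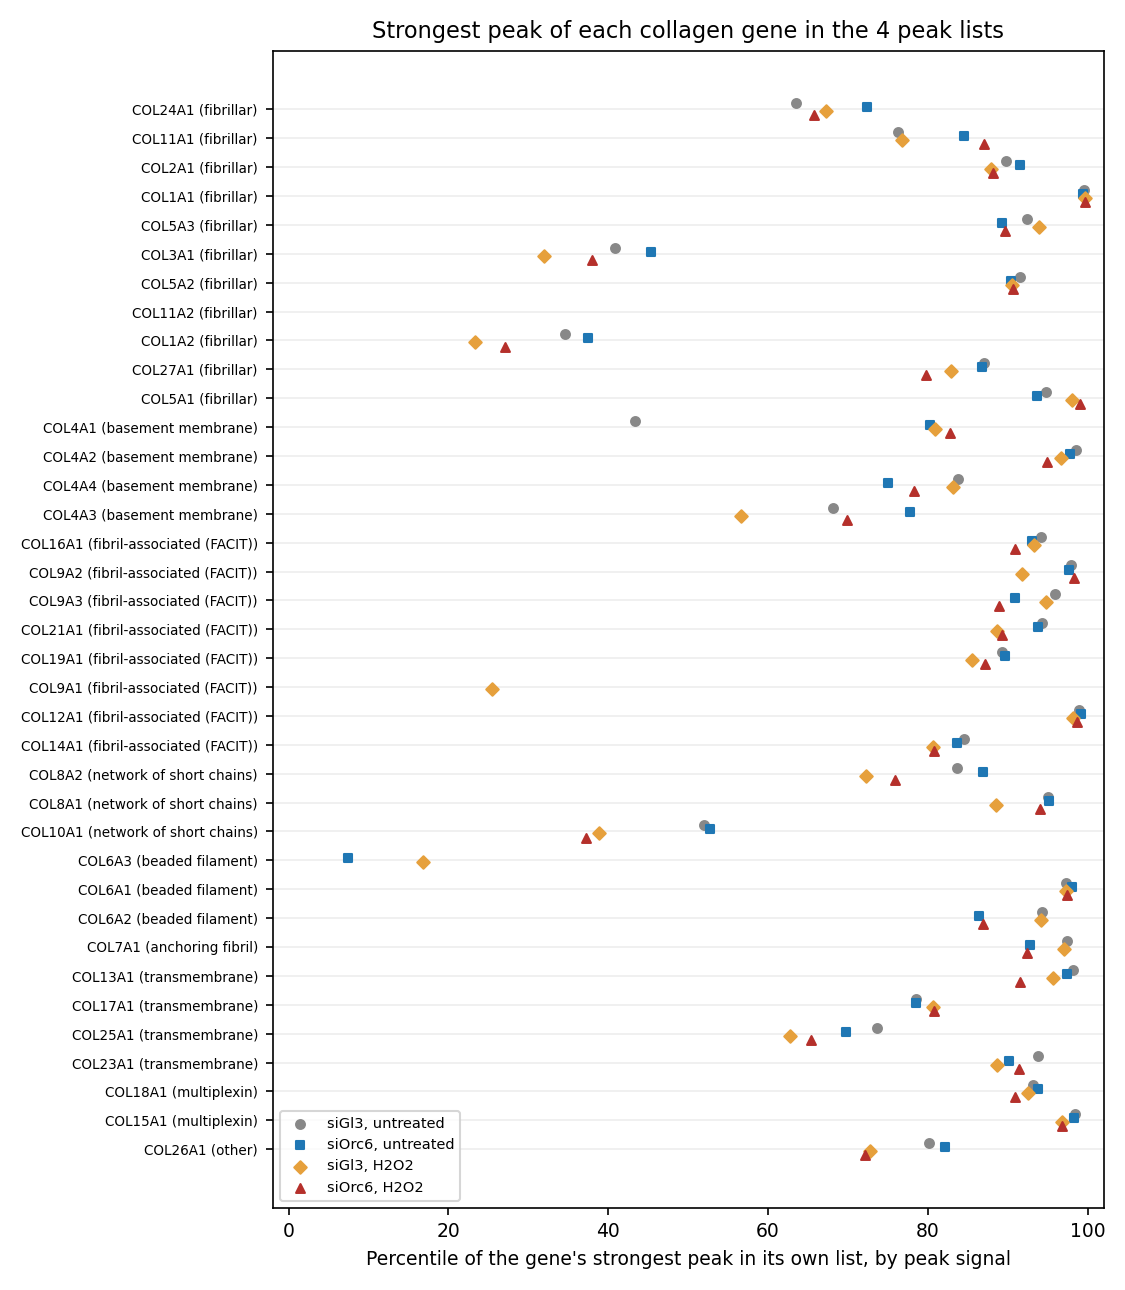
Percentile by peak signal of the strongest peak of each collagen gene within its own list (horizontal axis), with genes in rows by class and 1 symbol per condition. COL1A1 and COL12A1 lie above 98 in all 4 lists, while COL1A2 and COL3A1 lie below 46, and percentiles of different lists do not measure a change.

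Listed starts were not always covered. Of the 28 members in the promoter table, 13 had a peak over a promoter window in all 4 lists (background 49.1% of genes), 12 in none (background 45.9%) and 3 in some lists. The collagen shares were close to the background. The 3 were the type IV genes COL4A3 and COL4A4, which start close together on opposite strands, and COL17A1, the hemidesmosome collagen of skin. COL4A3 had a peak over its window with H2O2 alone, at the 43.9 percentile in siGl3 and 63.3 in siOrc6. This depended on the window edge, since the siGl3 peak with H2O2 ended at -249 bp from the start. The untreated lists had a peak just before the window, ending at -312 bp in siGl3 (25.3 percentile) and -632 bp in siOrc6 (32.2).

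Presence across conditions was a little more uneven in collagen spans than elsewhere. Of the merged peaks, 225 of 400 were in all 4 lists (56.2%, Wilson 95% interval 51.4 to 61.0), against 62.1% of all merged peaks. In 1 list only there were 82 (20.5%, interval 16.8 to 24.7), against 15.8%. By condition, 29 (7.25%) were found in untreated siGl3 alone (background 6.04%), 29 (7.25%) in untreated siOrc6 alone (5.30%), 22 (5.5%) in siGl3 with H2O2 alone (3.06%) and 2 (0.5%) in siOrc6 with H2O2 alone (1.37%). The first 3 shares were above the background and the last below it. These intervals treat peaks as independent and cover counting error only. Of the merged peaks listed in untreated siGl3, 57 of 331 (17.2%) had no peak in untreated siOrc6, against 14.0% of all. In the other direction 42 of 316 (13.3%) were in untreated siOrc6 alone of these 2 lists, against 10.4%. With H2O2 the shares were 17.5% against 13.5% and 10.9% against 8.93%. A peak absent from a list lay under the authors' threshold, and such absence was not tested.

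These uneven peaks were spread over many genes, and their number is read beside the number of merged peaks. COL5A2 had 18 peaks in untreated siGl3, 28 in untreated siOrc6 and 18 in each list with H2O2. Of its 29 merged peaks, 11 were in untreated siOrc6 and not in untreated siGl3. COL4A4, a type IV chain of the kidney filter, had 6 of this kind among 13 merged peaks and COL21A1, a FACIT collagen gene, 5 of 27. These peaks were below the middle of the untreated siOrc6 list. Their percentiles ran from 1.01 to 43.7 in COL5A2, 1.97 to 16.8 in COL4A4 and 0.363 to 10.7 in COL21A1. COL26A1 went the other way, with 24 peaks in untreated siGl3, 15 in untreated siOrc6, 18 in siGl3 with H2O2 and 19 in siOrc6 with H2O2. There 9 of 25 merged peaks were in untreated siGl3 and not in untreated siOrc6, at weak percentiles from 4.25 to 33.8 in untreated siGl3. COL13A1 had 5 of 27 of this kind, COL19A1 5 of 11, COL6A1 3 of 6, COL15A1 4 of 21 and COL23A1 4 of 18. With H2O2, COL13A1 had 7. COL15A1 with H2O2 had 2 of this kind and 6 of the reverse, in siOrc6 and not in siGl3. Of all 129052 merged peaks, 15490 were in untreated siGl3 and not in untreated siOrc6, and 10981 were the reverse. With H2O2 these were 13478 and 8451.

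The central comparison asked where accessibility differed between siOrc6 and siGl3. Of the 37 collagen genes, 16 had a region listed as higher in untreated siOrc6, and 11 had a lower one. Over all protein-coding genes 17.5% had a higher and 11.8% a lower region. With H2O2, 2 collagen genes had a higher region (background 2.38%) and 5 a lower one (3.47%). In all, 23 members had a region in at least 1 list. The 14 with none were COL2A1, COL3A1, COL11A2, COL6A1, COL6A3, COL7A1, COL8A2, COL18A1 and the FACIT genes COL9A1, COL9A2, COL9A3, COL12A1, COL14A1 and COL16A1. These shares were above the background of all genes, but collagen genes are long. Summed over the length classes, the shares of all genes of the same class come to 11.3 genes for higher and 8.80 for lower regions without H2O2, against 16 and 11 seen. With H2O2 they come to 2.23 and 3.10, against 2 and 5. The 16 genes include COL4A1 and COL4A2, which are counted separately although both were hit only through a region they share.

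The difference for higher regions lay mostly in genes of 100 to 300 kb. There 9 of 14 collagen genes, with COL4A1 and COL4A2 through a shared region, had one against 32.8% of all genes. At 10 to 30 kb it was 0 of 5 (11.8%), at 30 to 100 kb 3 of 12 (18.3%) and above 300 kb 4 of 6 (66.0%). For lower regions the counts were 1 of 5 (6.32%), 1 of 12 (13.5%), 6 of 14 (27.3%) and 3 of 6 (50.7%). Counted by merged peaks, 33 of 400 (8.25%, Wilson interval 5.94 to 11.4) were at a higher region without H2O2, against 6.85% of all merged peaks. At a lower region there were 20 (5.00%, interval 3.26 to 7.60), against 4.74%. With H2O2 there were 3 (0.750%) against 0.945% and 6 (1.5%) against 1.19%. Per peak, the collagen shares were near the background in all 4 lists, and the interval of each of the first 2 held it.

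**Figure D3:**
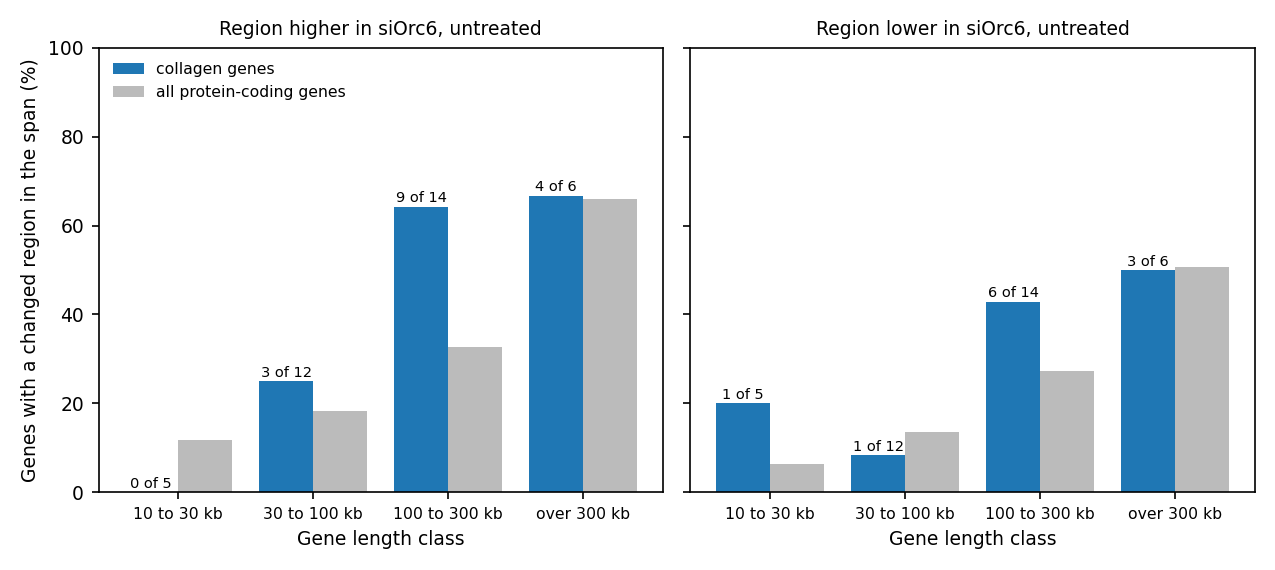
Percentage of genes with a region listed as higher (left) or lower (right) in untreated siOrc6 in the span (vertical axis), by gene length class (horizontal axis), for collagen genes (blue, with counts) and all protein-coding genes (grey). The bars differ most at 100 to 300 kb, where 9 of 14 collagen genes had a higher region against 32.8% of all genes. COL4A1 and COL4A2 are both among the 9 through a region they share.

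In total, 25 distinct regions in collagen spans were higher in untreated siOrc6 and 18 were lower. The higher ones had a median width of 522 bp, against 648 bp over the whole list, and the lower ones 531 bp against 436 bp. None lay within 1 kb of an end of another protein-coding gene. Of the higher regions, 3 covered a promoter window, and no lower region did. Counted by genes, these were COL4A1 and COL4A2, which share a region, COL5A1 and COL11A1, of 28 members in the promoter table. Over all listed genes the shares were 4.63% for higher and 0.368% for lower regions. No region with H2O2 covered a promoter window of a member, where the backgrounds were 0.125% for higher and 0.0883% for lower regions. Where a start was listed, higher regions lay a median of 24.8 kb from it (18 regions) and lower ones 108 kb (17 regions). These distances were not adjusted for gene length, and no such median was computed over all genes. Regions in genes with no listed start, such as COL5A2, are left out of them. Every higher region had a peak in untreated siOrc6 and 16 of 25 also in untreated siGl3. Every lower one had a peak in untreated siGl3 and 9 of 18 also in untreated siOrc6. Those peaks may have been a condition for listing a region, which the sources used here do not state, so their presence is not a result.

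**Figure D4:**
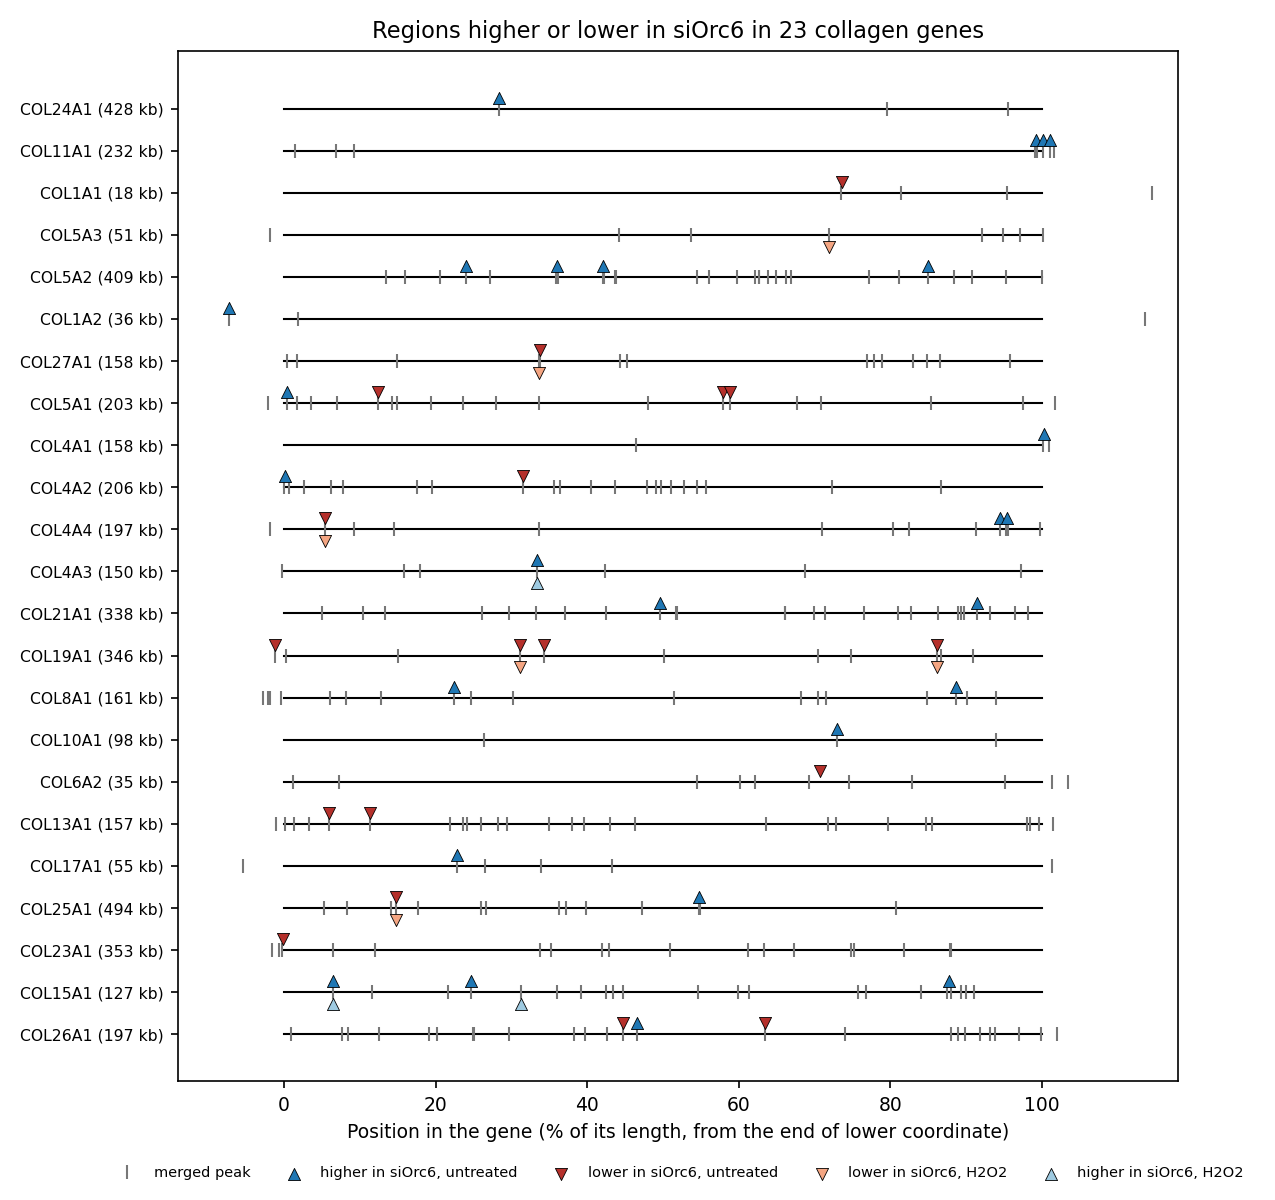
Positions of merged peaks (grey ticks) and of regions listed as higher (upward triangles) or lower (downward triangles) in siOrc6, without H2O2 above each line and with H2O2 below it, along 23 collagen genes in per cent of gene length from the end of lower coordinate (horizontal axis). COL11A1 has 3 higher regions at one end, COL5A1 has 1, and COL4A1 and COL4A2 share 1. COL19A1 holds 4 lower regions and no higher one.

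At the shared start of COL4A1 and COL4A2, a region of 2488 bp (chromosome 13, 110306323 to 110308810) was higher in untreated siOrc6. It covers all of the stretch printed above. Untreated siGl3 had 2 narrow peaks there, of 407 and 432 bp, at the 8.73 and 43.4 percentiles. Untreated siOrc6 had a peak of 1869 bp at 80.3 over both starts and another of 442 bp at 22.4. With H2O2, siGl3 had a peak of 1616 bp at 80.9, and siOrc6 one of 1855 bp at 82.7 and one of 316 bp at 3.40. Untreated siGl3 alone had no peak wider than 1 kb there, and with H2O2 the region was not listed as higher or lower. Near the start of COL6A2 no region was listed, and peaks were split differently in each list. The strongest peak within 1 kb of that start ranked at 73.7, 75.4, 70.6 and 85.5.

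At COL5A1, a region of 3215 bp (chromosome 9, 134640833 to 134644047) over the start was higher in untreated siOrc6. Untreated siGl3 had peaks of 1044 and 1457 bp there, at 91.3 and 84.0, and untreated siOrc6 had 1327 and 1751 bp at 93.0 and 87.5. With H2O2 the region was covered by a single peak in each list, of 2671 bp at 98.1 in siGl3 and 2945 bp at 99.0 in siOrc6, and was not listed as changed. The peaks were wider in siOrc6 than in siGl3 in both treatments. At COL11A1, 3 regions at and around the start were higher in untreated siOrc6: 103106401 to 103107315, 103108071 to 103109567 and 103110664 to 103111124 on chromosome 1. Over the start itself the strongest peak was 985 bp wide at 76.3 in untreated siGl3 and 1432 bp at 84.5 in untreated siOrc6. With H2O2 these were 911 bp at 76.7 and 1520 bp at 87.0. This strongest peak was wider in siOrc6 in both treatments, although regions were listed without H2O2 alone. Untreated siGl3 had a second peak in the same region, of 336 bp at 5.69. Within 1 kb of the start, peaks covered 1276 bp in untreated siGl3 and 1396 bp in untreated siOrc6. With H2O2 they covered 911 and 1484 bp. The region farthest upstream had a peak in untreated siOrc6 only.

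**Figure D5:**
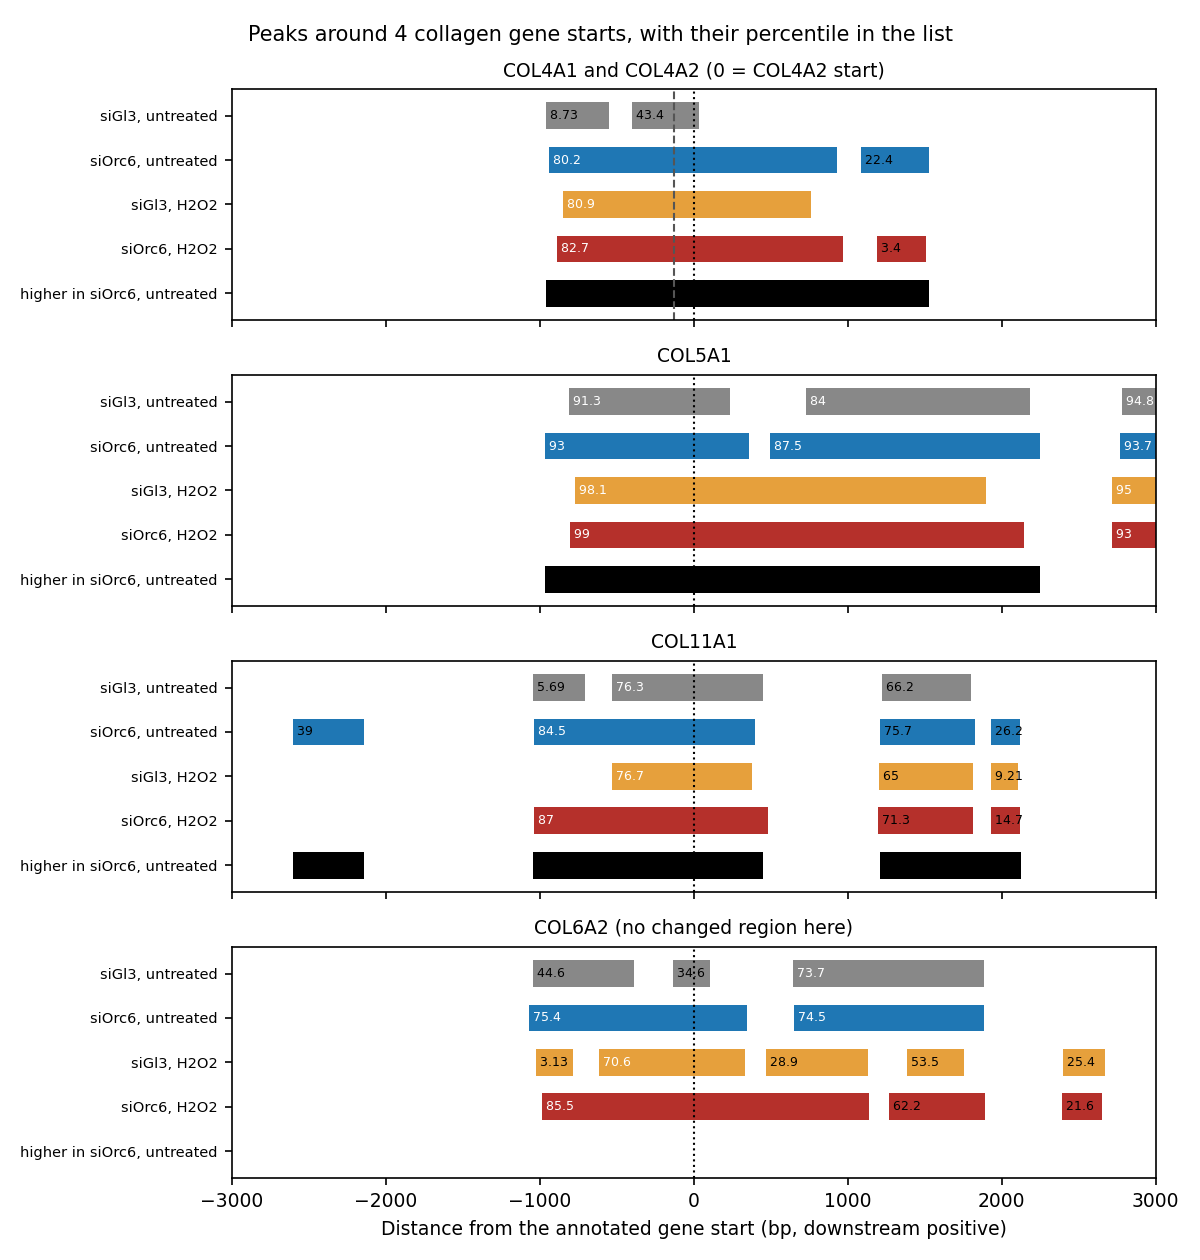
Peaks of the 4 lists (bars with their percentile in the list) and regions higher in untreated siOrc6 (black) by distance in bp from 4 annotated collagen gene starts (horizontal axis), where the dashed line marks the COL4A1 start. At COL4A1/COL4A2 the untreated siGl3 list has peaks of 407 and 432 bp, where the other lists have one of at least 1616 bp.

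Further regions lay inside fibrillar genes. COL5A2 had 4 higher regions within its annotated extent, the widest of 1372 bp at chromosome 2, 189178733 to 189180104. The strongest peak in this widest region was at 52.3 in untreated siGl3 and 63.1 in untreated siOrc6. No start was listed for COL5A2, so whether any of its regions covers a start is not known. COL24A1 had 1, over its strongest peak, at 63.6 and 72.4. COL1A2 had 1 of 159 bp outside the gene (chromosome 7, 94392162 to 94392320), seen as a peak in untreated siOrc6 alone at 2.78. Lower regions were found in COL5A1 (3), COL1A1 and COL27A1 (1 each). That in COL1A1, of 228 bp at chromosome 17, 50196889 to 50197116, lay apart from the strong peak near the end. It ranked at 21.95 in untreated siGl3 and was not in the untreated siOrc6 list, but was at 47.3 and 18.9 with H2O2. COL5A1 thus had a higher region at its start and lower ones 25.0, 117 and 119 kb from it.

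All 4 basement membrane genes had a higher region in untreated siOrc6, against 32.8% of all genes of their length class (100 to 300 kb), and COL4A1 and COL4A2 had it through the one region they share. COL4A4 had 2, of 281 and 930 bp, 10.6 and 8.44 kb from its start. COL4A3, which encodes a partner chain of the COL4A4 product, had 1 of 443 bp at chromosome 2, 227214591 to 227215033, with a peak in both siOrc6 lists (38.6 and 16.9) and in neither siGl3 list. Lower regions lay in COL4A2 (545 bp, 64.6 kb from the start) and COL4A4 (535 bp). The COL4A2 region ranked at 48.8 in untreated siGl3, 9.99 in untreated siOrc6, 48.3 in siGl3 with H2O2 and 27.0 in siOrc6 with H2O2.

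Among FACIT collagens, COL21A1 had 2 higher regions and COL19A1 4 lower ones, and the other 6 genes had none. COL19A1, a collagen first known from muscle-derived tumour cells, had 10 peaks in untreated siGl3, 5 in untreated siOrc6, 9 in siGl3 with H2O2 and 5 in siOrc6 with H2O2. All 4 of its lower regions had a peak in untreated siGl3, at percentiles from 9.11 to 46.5, and none had one in untreated siOrc6. The strongest peak of the gene, 51.6 kb from its end of lower coordinate, was not among them and ranked at 89.3, 89.7, 85.6 and 87.2. Of the short-chain network genes, COL8A1, a collagen of vessel walls and the eye, had 2 higher regions (226 and 320 bp) and COL10A1 1 of 446 bp. These 3 had a peak in untreated siOrc6 and none in untreated siGl3.

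COL6A2 was the beaded filament gene with a listed region, a lower one of 2028 bp over its strongest peak (chromosome 21, 46121679 to 46123706). That peak ranked at 94.3 in untreated siGl3, 86.4 in untreated siOrc6, 94.1 in siGl3 with H2O2 and 87.0 in siOrc6 with H2O2. COL13A1 had 2 lower regions. The larger, of 1859 bp at chromosome 10, 69818730 to 69820588, ranked at 97.5, 85.8, 95.7 and 86.2 in the same order. The smaller, of 810 bp, ranked at 53.8, 11.6, 63.3 and 18.7. Both regions had a peak in every list. COL25A1, a transmembrane collagen of neurons, had a higher region of 1397 bp and a lower one of 476 bp, 197 kb apart. COL23A1 had a lower region outside the gene and COL17A1 a higher one of 201 bp.

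COL15A1 had 3 higher regions without H2O2, of 403, 989 and 1053 bp, and no lower one. COL18A1, the other multiplexin, had none. In COL26A1, a collagen of reproductive tissue, a higher region of 771 bp (chromosome 7, 101453445 to 101454215) and a lower one of 402 bp lay 2.91 kb apart, and a second lower one was 540 bp wide. Together with COL5A1, COL4A2, COL4A4 and COL25A1, 5 members carried regions of both directions without H2O2, at gaps from 2.91 to 197 kb.

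With H2O2, 3 distinct collagen regions were higher in siOrc6 and 6 lower. Of these, 2 of 3 higher (71.4% over the whole list) and 5 of 6 lower regions (60.8%) overlapped a region of the same direction without H2O2, and none overlapped one of the opposite direction. As a share of the untreated lists, these were 2 of 25 higher (10.8% over the whole list) and 5 of 18 lower regions (15.6%). The shared higher regions were in COL4A3 (348 bp) and COL15A1 (372 bp, chromosome 9, 98951947 to 98952318). COL15A1 had another, at 98983340 to 98983924, that was higher with H2O2 alone. Its peak ranked at 58.3 in untreated siGl3, 63.9 in untreated siOrc6 and 47.8 in siOrc6 with H2O2, and it was not in the list of siGl3 with H2O2. The shared lower regions were in COL19A1 (2), COL4A4, COL25A1 and COL27A1. COL5A3 had the sixth, of 208 bp, from a weak peak (2.86) found in siGl3 with H2O2 alone. Whether the effect of siOrc6 differed between the treatments was not tested, and the lists with H2O2 were shorter over the whole genome (1143 and 1464 regions, against 7517 and 5698).

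Genes that make, cross-link, bind or break down collagen were followed as a list of 45, of median length 27.9 kb. Of these, 42 had a peak in every list (83.0% of all protein-coding genes) and 39 a peak within 1 kb of an annotated end in every list (67.0%). Without H2O2, 12 had a higher (17.5%) and 9 a lower region (11.8%) in the span, and with H2O2 1 (2.38%) and 4 (3.47%). The shares of all genes of the same length classes sum to 7.89 and 5.51 genes without H2O2 and 0.924 and 1.54 with it. By role, higher and lower regions without H2O2 were in 3 and 2 of 17 genes of chain modification and folding, and in 4 and 4 of 11 genes of propeptide removal and cross-linking. They were in 3 and 1 of 7 receptors and in 2 and 2 of 10 genes of breakdown. Summed over length classes, the shares of all genes come to 2.85 and 1.96, 2.09 and 1.51, 1.73 and 1.35, and 1.22 and 0.682 genes for these 4 roles, and no role was tested. Higher regions lay at the ends of 7 of the 45 genes and a lower one at 1, against 6.81% and 0.941% of all protein-coding genes. The higher ones were at ADAMTS2 and ADAMTS3, which cut off the N-terminal propeptide, PCOLCE, which enhances removal of the C-terminal one, and LOX, which cross-links fibrils. They also lay at ITGB1, the beta chain of collagen-binding integrins, and at the matrix-degrading enzymes MMP14 and MMP2. The region at MMP14, of 3277 bp, had a strongest peak at 80.9 in untreated siGl3, 95.9 in untreated siOrc6, 81.9 in siGl3 with H2O2 and 87.2 in siOrc6 with H2O2. Those at LOX and PCOLCE also lie at ends of SRFBP1 and FBXO24. A lower region at a gene end was found at PCOLCE alone, 305 bp wide over a very weak peak (0.627 in untreated siGl3).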

How the data were processed

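ATAC-seq libraries of 4 conditions, 2 libraries each, had been turned by the authors into 1 peak list per condition before deposit. Per the submitters' processing notes, the build was hg38 and the tools included bcl2fastq 2.20, Bowtie2, Picard, SAMtools, deepTools and Genrich. Their roles and thresholds, shifts for the transposase and the handling of duplicates are not given in the sources used here. The deposited lists give a peak signal, a display score, and −log10 p and −log10 q values of the authors' caller. Only the signal was used, to rank peaks within a list (percentile of peaks at or below). The deposited lists of regions higher or lower in siOrc6 hold positions with no fold or p-value. Depth is unknown, so the precision of single values cannot be given.

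Chromosomes 1 to 22 and X were used. Gene positions came from RefSeq GRCh38.p14 and spans had 5 kb on each side. Peaks that overlapped or touched were merged, and overlap meant at least 1 bp. Length classes had edges at 10, 30, 100 and 300 kb. The members and lists were chosen with earlier results of these data known, and counts are set beside the same counts over all protein-coding genes, with no test. Named genes were every member with a changed region or no peak, the 3 densest and 3 sparsest, and COL1A1 and COL1A2. Pathway genes were named where a changed region lay within 1 kb of an annotated end, at most 4 per role. Other members, and the starts and percentiles of unchanged members, were named after their values were seen. Starts, promoter windows and sequences came from a RefSeq promoter table that matched 28 members and listed starts for 27195 genes on these chromosomes. COL1A1, COL1A2, COL2A1, COL3A1, COL5A2, COL6A1, COL8A1, COL9A3 and COL14A1 had no entry. Alternatives were no or 20 kb of flank, 1 kb around annotated ends, a larger overlap, joining at 500 bp, the stronger peaks of each list, and leaving out ends of other genes. The counting was tested on simulated regions. Scripts ran under Python 3.11.15 with pandas 2.3.3 and numpy 2.4.6, and figures were drawn with matplotlib 3.10.9.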

Additional observations from a re-analysis of the deposited data

How the results depend on the processing

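The counts of collagen genes with a changed region stayed within 1.5 times the reported ones with no flank, with 20 kb of flank, with at least 50% of a region in the span, and without regions at ends of other genes. Within 1 kb of either annotated end they were lower, since most regions lie inside the genes. Without H2O2, 4 of 37 genes had a higher region there (6.81% of all protein-coding genes) and 1 a lower one (0.941%). COL4A1 and COL4A2 are both among the 4 through the region they share. With H2O2 the counts were 0 and 0, and no share over all genes was computed for these. With the stronger 50% of each list by peak signal, 193 merged peaks were left in collagen spans. The median number of merged peaks per 100 kb was 7.999 with no flank, 7.95 with 20 kb, 6.94 with peaks joined at up to 500 bp, 3.86 with the stronger 50% of each list and 7.74 without peaks at ends of other genes. It was 8.04 without COL11A2, an alternative chosen after seeing the data. The share of merged peaks in all 4 lists lay between 56.2% and 59.6% in every setting tried. No paired analysis was possible because each condition has 1 peak list made from both libraries, and for the same reason no library could be left out. Unknown depth limits what absence from a list can mean.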
